A study of Mus musculus with 2 samples.

Results

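The 10 genes described here belong to the hypoxia response and to the angiogenic factors it controls: Hif1a, Epas1, Arnt, Egln1, Egln3, Vegfa, Adm, Bnip3, Ero1l and Ndrg1. They were taken by symbol, were all found by one identifier each, and are 10 of the 51084 gene identifiers that both deposited count tables list. Poly(A) RNA was sequenced from C57BL/6J macrophages that had been grown in culture from bone marrow precursors. In the CANDI470 group, CANDI470, an agent named only by this code, was added to 1 mg/mL on the 7th day of differentiation, and the cells were harvested for RNA after 12 h. In the PBS control group, macrophages of the same strain received PBS. Per its title, the series is about tumour macrophages pushed towards CXCL9 and away from SPP1, and each group held 1 library as used here. The control tables hold 3 further columns, named as a second control and a pair of empty CANDI libraries, which have no sample record among those used and were not analysed here. An effect of the empty carrier therefore cannot be told apart here from one of CANDI470.

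Cells read oxygen through prolyl hydroxylases, which mark the alpha subunits of hypoxia-inducible factor (HIF) for destruction by the VHL ubiquitin ligase when oxygen is present. A stable alpha subunit pairs with ARNT, binds short hypoxia response elements in DNA and switches on genes for glycolysis, blood vessel growth and adaptation of mitochondria. In macrophages, inflammatory stimuli raise Hif1a transcription through NF-kB, so this pathway is also known as part of the inflammatory response at normal oxygen. The deposited values are RNA levels, and they hold no measure of oxygen or of HIF protein.

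Gene counts totalled 41646905 in CANDI470 and 28442450 in the PBS control. With 1 library per group as used here no test was made and no p-value is given, and all intervals are 95% exact intervals for counting error only. A second title line in the CANDI470 count table also names BTZ, which the labels do not explain, while its data column carries the CANDI470 name alone. The title lines of the logCPM tables name the other group, and columns were assigned by their own names. Each library has its own count table with its own gene annotation and gene coordinates, and effects of the treatment and of library making or counting cannot be told apart. A difference is the log2(CPM + 1) of CANDI470 less that of the PBS control, where CPM is the count per 1000000 counts after TMM scaling, a trimmed-mean adjustment between libraries. A gene was compared when it reached 1 CPM in a library, which left 12779 genes with a median difference of -0.01. Macrophage markers were present in both libraries. The 8 markers listed summed to 14216 CPM in CANDI470 and 20349 CPM in the PBS control, and none was at 0. Most of each sum came from Lyz2, with 7274 CPM in CANDI470 and 13837 CPM in the PBS control.

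The promoter windows are shown first, because HIF acts through the core hypoxia response element. Whether the words have a part in the differences was not tested. RefSeq windows on GRCm38.p6, from 250 bases before to 50 after each gene start, were available for 8 of the 10 genes, with Ero1l under its symbol Ero1a, and not for Epas1 or Ndrg1. The words searched were ACGTG and GCGTG on both strands. All 8 genes had a word in a window, Vegfa only in its second, as did 46.7% of the 27025 genes with a window. Counted by window, 8 of 9 held a word, against 43.8% of 32851. The window without one was the first of Vegfa, which covers the start of its gene model. The second, at chr17:46025114-46025413 on the minus strand, had 2 and lies inside that gene model, away from its start. The Hif1a window had 3 words, Egln1 had 2 and Arnt had 1. The Hif1a window, at chr12:73907617-73907916 on the plus strand, also lies inside its gene model, which starts at 73901375. These matches describe letters in a short window and are not binding sites, and elements outside the window were not searched. The 4 windows printed belong to genes that were over 4-fold higher in CANDI470 and range from 1 word to 5. Each runs 5′ to 3′ on the gene's strand, and capitals mark a word on either strand:
Bnip3, chr7:138909457-138909756, minus strand: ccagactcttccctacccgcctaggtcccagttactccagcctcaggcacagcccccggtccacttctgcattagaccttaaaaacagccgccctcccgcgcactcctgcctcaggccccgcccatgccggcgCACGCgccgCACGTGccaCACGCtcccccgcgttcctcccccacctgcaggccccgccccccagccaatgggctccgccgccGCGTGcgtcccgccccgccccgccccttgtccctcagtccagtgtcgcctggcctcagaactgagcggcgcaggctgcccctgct
Ero1l, chr14:45318523-45318822, minus strand: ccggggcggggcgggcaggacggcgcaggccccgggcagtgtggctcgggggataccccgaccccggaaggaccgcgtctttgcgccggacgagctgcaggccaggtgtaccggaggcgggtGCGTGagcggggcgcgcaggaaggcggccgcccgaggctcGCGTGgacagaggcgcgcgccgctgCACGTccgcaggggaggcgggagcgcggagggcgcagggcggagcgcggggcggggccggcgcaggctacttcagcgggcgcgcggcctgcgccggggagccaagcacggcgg
Adm, chr7:110627407-110627706, plus strand: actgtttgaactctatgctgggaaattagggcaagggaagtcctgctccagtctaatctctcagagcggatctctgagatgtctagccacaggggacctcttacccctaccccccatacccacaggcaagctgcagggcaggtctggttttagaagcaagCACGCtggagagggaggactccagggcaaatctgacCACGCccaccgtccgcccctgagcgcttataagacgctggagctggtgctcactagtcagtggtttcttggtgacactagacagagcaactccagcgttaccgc
Egln3, chr12:54203825-54204124, minus strand: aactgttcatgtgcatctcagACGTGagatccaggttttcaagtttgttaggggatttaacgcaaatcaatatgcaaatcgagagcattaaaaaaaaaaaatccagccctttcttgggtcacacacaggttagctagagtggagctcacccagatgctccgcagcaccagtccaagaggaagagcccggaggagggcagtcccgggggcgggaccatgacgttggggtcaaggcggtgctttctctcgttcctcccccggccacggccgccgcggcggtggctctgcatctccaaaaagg

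Bnip3 had 5 words between 117 and 35 bases before the start, among them a palindrome that counts on both strands and so overlaps itself. The 3 of Ero1l lay 128, 88 and 63 bases before the start and the 2 of Adm 90 and 54 bases before it. The only word of Egln3 was near the far end of its window, 229 bases before the start.

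**Figure D1:**
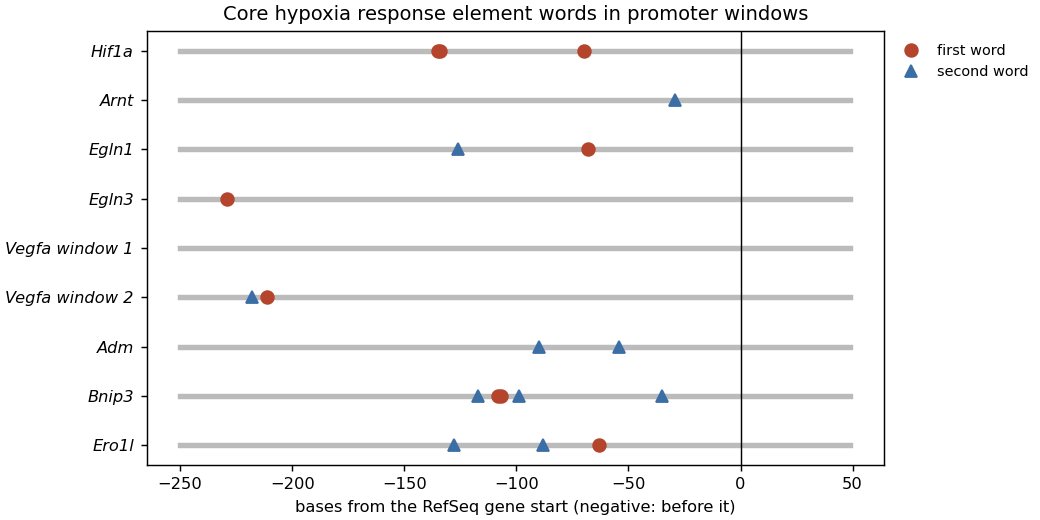
Positions of the core words in the 9 promoter windows, in bases from the RefSeq gene start on the x axis (grey bars are the windows, circles the word ACGTG, triangles the word GCGTG, on either strand). All words lie before the start, from 229 to 29 bases, and the first Vegfa window has none. The second Vegfa window and the Hif1a window lie inside the gene models, away from their starts.

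Of the 10 genes, 9 were higher in CANDI470 than in the PBS control, 7 of them at least 2-fold, and 0 were at least 2-fold lower. Among all compared genes, 25.7% were at least 2-fold higher and 23.6% at least 2-fold lower. The genes fell into a group of 6 that were over 4-fold higher (Hif1a, Ero1l, Egln3, Adm, Bnip3 and Vegfa), a group of 3 close to 2-fold (Egln1, Ndrg1 and Arnt), and Epas1, which was lower. A difference of at least 4-fold to the higher side was found for 11.5% of compared genes. The median of the 10 differences was 3.54. Adm lay above it, so the value given to Adm's count of 0 could not change it by making Adm higher. All 10 passed the 1 CPM minimum, Adm through its level in CANDI470.

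**Figure D2:**
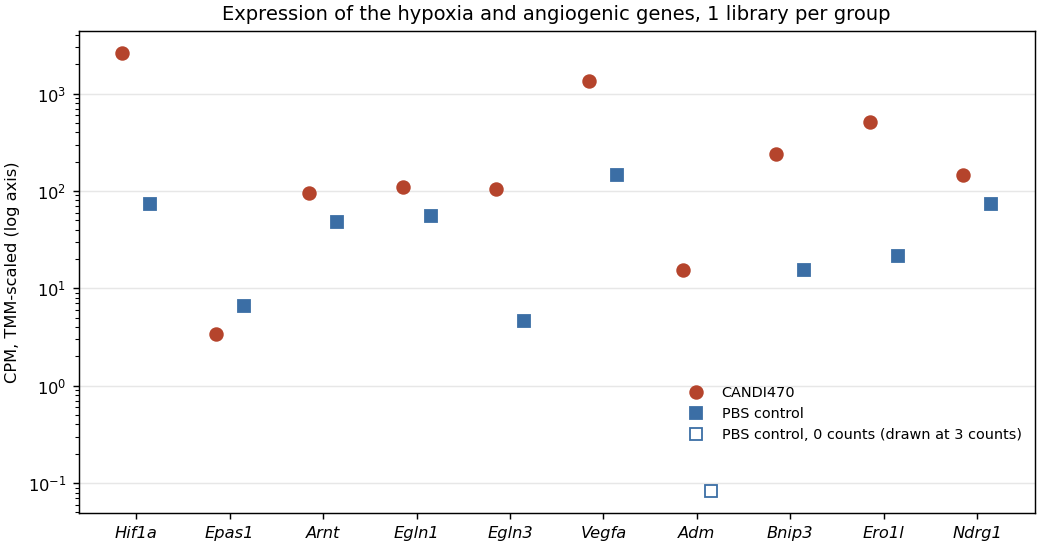
TMM-scaled CPM of the 10 genes on a log axis, with 1 library per group (circles CANDI470, squares PBS control; the open square is a count of 0 drawn at 3 counts). The widest gaps with counts in both libraries are those of Hif1a, Ero1l and Egln3, and Epas1 alone is lower in CANDI470.

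The HIF subunits differed unequally. Hif1a, the alpha subunit that is made widely and drives the acute response, had 84226 counts or 2603 CPM in CANDI470, against 2687 counts or 74.2 CPM in the PBS control. That is a log2 difference of 5.11 and a CPM ratio of 35.1 (33.8 to 36.5), and only 1.78% of compared genes differed by as much to the higher side. Epas1, which encodes the alternative subunit HIF-2alpha, was scarce in both libraries, with 111 counts or 3.43 CPM in CANDI470, against 240 counts or 6.63 CPM in the PBS control. Its ratio was 0.518 (0.410 to 0.651) and its log2 difference -0.78, which did not reach 2-fold on the log2(CPM + 1) scale. Arnt, the beta subunit shared by both alpha subunits, had 3071 counts or 94.9 CPM in CANDI470, against 1735 counts or 47.9 CPM in the PBS control, a log2 difference of 0.97. Its ratio of 1.98 (1.87 to 2.10) lay on the 2-fold line. The ratio of the 2 alpha subunits within a library needs no scaling between libraries. Per unit of gene length, Hif1a counts were 719 (597 to 875) times those of Epas1 in CANDI470 and 10.1 (8.83 to 11.6) times in the PBS control.

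By the GRCm38 coordinates of the control table, Hif1a lies on the plus strand of chromosome 12 from 73901375 to 73947530, and Epas1 on the plus strand of chromosome 17 from 86753907 to 86833410. An antisense gene, Gm15283, overlaps Hif1a and had 214 counts in CANDI470 and 0 in the PBS control. The strand setting of the counting was not given in the sources used here, so reads of both cannot be told apart. Pseudogene models also overlap Arnt (Gm42672, 13 counts in CANDI470 and 2 in the PBS control) and Bnip3 (Gm18258, 12 counts in CANDI470 and 1 in the PBS control). The gene model of Epas1 spanned 5590 bases for CANDI470 and 5309 for the PBS control, and the other 9 genes had equal lengths in both.

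The prolyl hydroxylases differed in size of response. Egln3, which encodes PHD3 and is itself a HIF target in many cells, had 3365 counts or 104 CPM in CANDI470, against 169 counts or 4.67 CPM in the PBS control. Its log2 difference was 4.21 and its ratio 22.3 (19.1 to 26.2). Egln1, which encodes PHD2, the main oxygen sensor at normal oxygen, had 3581 counts or 111 CPM in CANDI470, against 1982 counts or 54.7 CPM in the PBS control. With a log2 difference of 1.00 and a ratio of 2.02 (1.91 to 2.14) it was just inside the 2-fold rule. Counts of Egln3 per 1000 counts of Egln1 were 940 (896 to 985) in CANDI470 and 85.3 (72.4 to 99.8) in the PBS control. So the PHD3 transcript was far below the PHD2 transcript in the PBS control, and per unit of length it was 1.27 (1.21 to 1.33) times as abundant in CANDI470. Egln3 is on the minus strand of chromosome 12 from 54178981 to 54203860 and Egln1 on the minus strand of chromosome 8 from 124908587 to 124949324.

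The secreted factors were both higher in CANDI470. Vegfa, which encodes the growth factor that drives sprouting of new vessels, had 43500 counts or 1344 CPM in CANDI470, against 5241 counts or 145 CPM in the PBS control. Its log2 difference was 3.21 and its ratio 9.29 (9.03 to 9.56). Vegfa was already well expressed without CANDI470, above 90.9% of compared genes per unit of length. Adm encodes adrenomedullin, a peptide that widens vessels and supports endothelial cells. It had 503 counts or 15.5 CPM in CANDI470 and 0 counts in the PBS control, where 3 counts correspond to 0.0828 CPM. Against that floor of 3 counts Adm was 188-fold higher, while the lower limit of its 95% interval was 152-fold. Per unit of length, Adm was at 0.0306 (0.0280 to 0.0334) of the Vegfa level in CANDI470. The Adm value on the log2(CPM + 1) scale, 4.05, depended on the pseudocount and was 7.29 with 0.1 CPM and 2.04 with 5 CPM. Vegfa lies on the minus strand of chromosome 17 from 46016993 to 46032369 and Adm on the plus strand of chromosome 7 from 110627661 to 110629820.

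Among the remaining targets, Bnip3 and Ero1l differed far more than Ndrg1. Bnip3, a protein of the outer mitochondrial membrane that marks mitochondria for removal, had 7783 counts or 241 CPM in CANDI470, against 560 counts or 15.5 CPM in the PBS control. Its log2 difference was 3.88 and its ratio 15.6 (14.3 to 17.0). Ero1l encodes the oxidase that passes electrons from folding proteins in the endoplasmic reticulum to oxygen. It had 16636 counts or 514 CPM in CANDI470, against 774 counts or 21.4 CPM in the PBS control, a log2 difference of 4.53 and a ratio of 24.1 (22.4 to 25.9). Ndrg1, a stress-responsive gene induced by hypoxia and by iron loss, had 4746 counts or 147 CPM in CANDI470, against 2664 counts or 73.6 CPM in the PBS control. Its log2 difference of 0.99 and ratio of 1.99 (1.90 to 2.09) put it just outside the 2-fold rule, as those of Arnt did. Bnip3 lies on the minus strand of chromosome 7 from 138890836 to 138909519, Ero1l on that of chromosome 14 from 45283087 to 45318771 and Ndrg1 on that of chromosome 15 from 66929318 to 66969640. Arnt is on the plus strand of chromosome 3 from 95434388 to 95497240.

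**Figure D3:**
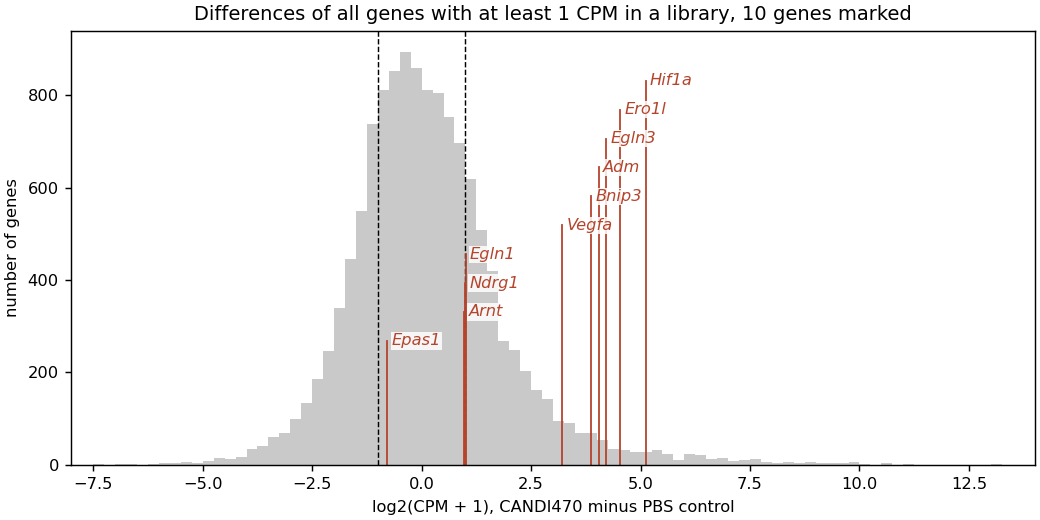
Histogram of the log2(CPM + 1) difference, CANDI470 minus the PBS control, over the 12779 compared genes, with the 10 genes marked by red lines (line height has no meaning; dashed lines are the 2-fold rule). Of the marked genes 6 lie in the upper tail from 3.21 to 5.11, 3 lie at the 2-fold line and Epas1 lies at -0.78.

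The order of the genes by level differed between the libraries. Levels of different genes are given as CPM per 1000 bases of gene model. In CANDI470, Hif1a was highest at 442, followed by Vegfa at 314, Bnip3 at 106 and Ero1l at 97.3. Egln3 at 39.1, Egln1 at 30.8, Ndrg1 at 22.2, Arnt at 11.9 and Adm at 9.60 came next, and Epas1 was last at 0.614. In the PBS control, Vegfa led at 33.8, followed by Egln1 at 15.2, Hif1a at 12.6 and Ndrg1 at 11.2. Below them were Bnip3 at 6.83, Arnt at 5.98, Ero1l at 4.04, Egln3 at 1.75 and Epas1 at 1.25, and Adm had no count. The median compared gene was at 4.055 in CANDI470 and 3.996 in the PBS control. Hif1a was thus above 99.0% of compared genes in CANDI470 and above 76.5% in the PBS control, while Epas1 was below the median gene in both. No neighbours in either order had overlapping counting intervals, but the spread between cultures was not measured here. Vegfa counts per 1000 counts of Hif1a were 516 (511 to 522) in CANDI470 and 1950 (1862 to 2044) in the PBS control, so the ratio of Vegfa to Hif1a was lower with CANDI470 although both were higher.

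The scaling between libraries moved all differences together and decided the genes near 2-fold. Of the genes at least 2-fold apart, 3282 were higher and 3013 lower with TMM, and 2080 were higher and 5152 lower when library totals were used, which moved the median gene to -0.69. With totals, Hif1a was at 4.41, Ero1l at 3.83, Adm at 3.72, Egln3 at 3.56, Bnip3 at 3.18 and Vegfa at 2.50, all still over 4-fold. Egln1, Ndrg1 and Arnt were then at 0.30, 0.28 and 0.27, and Epas1 was at -1.36, past 2-fold. Relative to the median gene under the same totals, Egln1 was at 0.99, Ndrg1 at 0.97 and Arnt at 0.96. Upper-quartile scaling put Epas1 at -1.09 and these 3 genes between 0.61 and 0.64, and moved the median gene to -0.38 with 2581 genes higher and 4063 lower. The sign of each of the 10 differences was the same under the TMM scaling and each of the 11 alternatives that could give it.

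**Figure D4:**
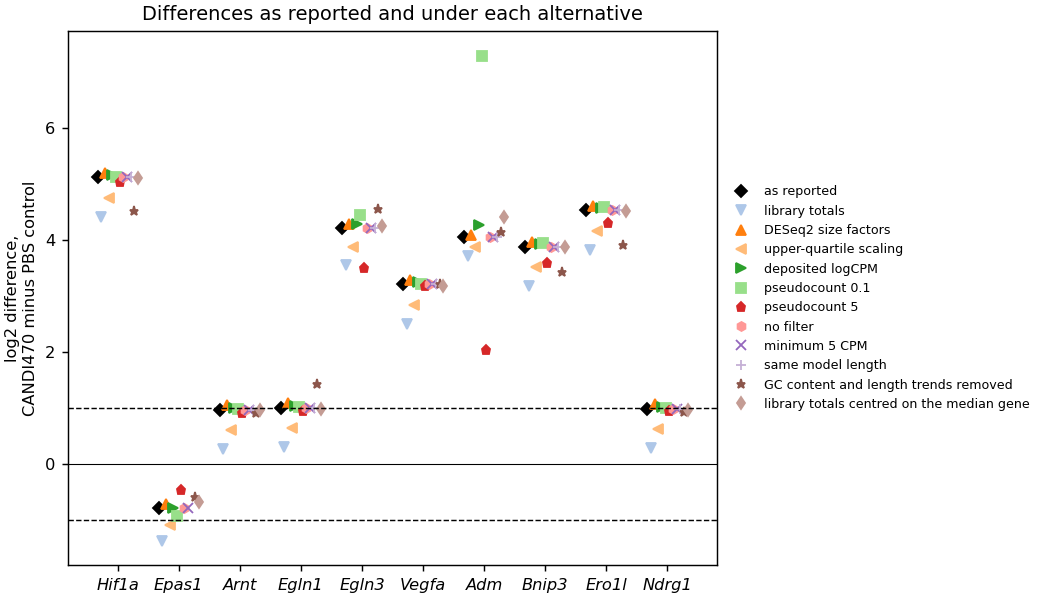
Log2 difference of each of the 10 genes, CANDI470 minus the PBS control, as reported (black diamonds) and under 11 alternatives (coloured symbols; dashed lines are the 2-fold rule). Hif1a, Egln3, Vegfa, Adm, Bnip3 and Ero1l lie above 2 throughout, Egln1, Ndrg1 and Arnt range from 0.27 to 1.43, and Epas1 lies below 0.

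Further genes of the pathway were read from 8 lists with 98 entries, including 86 genes other than the 10. Of these 86, 73 were compared, 36 were higher in CANDI470 by 2-fold or more and 10 lower by as much, with a median of 0.92. The counts of each list below stand beside 25.7% of all compared genes higher and 23.6% lower by this rule. All compared genes passed the same minimum. A gene that reached 1 CPM in only 1 library entered these counts through the library where it was higher. Among HIF subunits and cofactors, 7 of 8 were compared, Hif1a was the 1 gene at least 2-fold higher and none was lower (median 0.56). The number higher was 2 with DESeq2 size factors or a pseudocount of 0.1 CPM and 3 with the deposited logCPM. Hif3a, a further alpha subunit that can restrain the others, was near the limit of detection with 34 counts in CANDI470 and 3 in the PBS control, a CPM ratio of 12.7 (3.99 to 64.6) but a difference of 0.92 on the log2(CPM + 1) scale. Of 11 genes of oxygen sensing and HIF degradation, 4 were higher and 1 lower (median 0.38), while with library totals or upper-quartile scaling 2 were higher and 2 lower. Beside Egln3 and Egln1 the higher ones were Vhl, the substrate receptor that recognises hydroxylated HIF, at 2.01 with 82.8 CPM in CANDI470 and 19.7 CPM in the PBS control, and its scaffold Cul2 at 1.24, whose gene model spans 4216 bases for CANDI470 and 4138 for the PBS control. The adaptor Elob was lower at -1.04. With library totals the medians of these lists were negative, -0.16 and -0.28, and relative to the median gene they were 0.53 and 0.41.

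The angiogenic ligands included genes at both ends of the range. Of 16 listed, 12 were compared, with 6 higher by 2-fold or more and 3 lower (median 1.02), and the share lower is close to that of all compared genes. Of the 6, Pgf, Adm, Angpt1 and Edn1 reached 1 CPM only in CANDI470. Of the 3 lower, Angptl4 reached it only in the PBS control. Pgf, placental growth factor, had 888 counts in CANDI470 and 0 in the PBS control. Against the floor of 3 counts Pgf was 331-fold higher, while the lower limit of its counting interval was 269-fold. Angpt1, which steadies vessels through the receptor TIE2, had 354 counts in CANDI470 and 0 in the PBS control. It was 132-fold higher against the same floor, with a lower limit of 107-fold. Angptl4, a lipase inhibitor known as a target of HIF and of PPAR receptors, had 4 counts in CANDI470 and 687 in the PBS control, a ratio of 0.00652 (0.00177 to 0.0168), with a gene model of 3541 bases for CANDI470 and 3286 for the PBS control. The other lower ligands, named after their values were seen, were Vegfb at -2.49 and Pdgfb at -2.98. The Vegf genes and Pgf thus did not differ in one direction, since Vegfa and Pgf were higher, Vegfb lower, and Vegfc and Vegfd were under 1 CPM in both libraries.

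Receptors of angiogenic factors were also detected in these macrophage cultures. Of 12 listed, 8 were compared, with 5 higher by 2-fold or more and 2 lower (median 1.86), and 3 were higher with a pseudocount or a minimum of 5 CPM. Of the 5, Flt1, Flt4 and Ramp3 reached 1 CPM only in CANDI470. Of the 2 lower, Ramp1 reached it only in the PBS control. Adrenomedullin receptors are built from CALCRL with RAMP2 or RAMP3, and CALCRL with RAMP1 forms the receptor of the related peptide CGRP. Ramp3 had 634 counts in CANDI470 and 0 in the PBS control. It was 237-fold higher against the floor of 3 counts, while the lower limit of its counting interval was 192-fold. Ramp2 had 7 counts in CANDI470 and 4 in the PBS control, too few to be compared. Ramp1 had 19 counts in CANDI470 and 387 in the PBS control, a log2 difference of -2.88, while Calcrl itself was at -0.21 with 28.3 CPM in CANDI470 and 32.8 CPM in the PBS control. Kdr, the main VEGF-A signalling receptor, was at 3.42 with 123 CPM in CANDI470 and 10.7 CPM in the PBS control. Nrp1, a VEGF co-receptor named after its value was seen, was the other lower receptor at -2.11. Its relative Nrp2, also named after its value was seen, was higher at 2.12, with 1128 CPM in CANDI470 and 259 CPM in the PBS control. Kdr also marks endothelial cells. Of 7 endothelial markers, Kdr, Pecam1 and Cdh5 were higher by 2-fold or more, 3 in all, and the summed level was 173 CPM in CANDI470 and 13.6 CPM in the PBS control, most of it from Kdr and Pecam1, which macrophages can express. Cdh5 reached 1 CPM only in CANDI470. Cldn5 and Emcn were at 0 counts in both libraries, and Tek had 0 in CANDI470 and 5 in the PBS control; the part of endothelial cells in the receptor values was not tested. In bulk RNA, more cells of a type and more RNA per cell cannot be told apart.

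Genes with roles like those of Bnip3, Ero1l and Ndrg1 gave a mixed picture. Of 5 mitophagy receptors of the BNIP3 type, Bnip3 and its close relative Bnip3l, at 1.17, were the 2 at least 2-fold higher, none was lower, and Fkbp8 was at -0.32 (median 0.10, but -0.59 with library totals and -0.26 with upper-quartile scaling). With these scalings, and with GC and length trends removed, 1 was at least 2-fold higher, and with library totals 1 was lower. Of 8 genes of oxidative protein folding, 5 were higher and none lower (median 1.19), while with library totals 2 were higher and 1 lower (median 0.48) and with upper-quartile scaling 3 were higher and 1 lower. The disulfide isomerases Pdia4 at 2.04 and Pdia6 at 1.65 followed Ero1l, whereas its paralogue Ero1lb was at -0.66 with 38.4 CPM in CANDI470 and 61.4 CPM in the PBS control. In the NDRG family of 4, none was at least 2-fold higher and Ndrg3 was the 1 lower gene at -1.32 (median -0.38), with Ndrg4 at -0.88. With library totals or upper-quartile scaling 2 were lower, and with DESeq2 size factors or the deposited logCPM 1 was higher. The NDRG median was 0.05 once GC and length trends were taken out.

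Other genes known as HIF targets were mostly higher. Of 34 listed, 30 were compared, with 21 higher by 2-fold or more and 3 lower (median 1.85), and with library totals 17 were higher and 6 lower (median 1.17). Some of the 21, Ak4 and Stc2 among them, reached 1 CPM only in CANDI470. Pfkfb3, whose product raises glycolytic flux, was at 6.23, and the mitochondrial adenylate kinase Ak4 at 5.74 with 97.9 CPM in CANDI470 and 0.856 CPM in the PBS control. Stc2, a secreted glycoprotein, had 213 counts in CANDI470 and 0 in the PBS control. It was 79.5-fold higher against the floor of 3 counts, while the lower limit of its counting interval was 64.1-fold. Pfkfb4, a paralogue of Pfkfb3, was lower at -2.00. The other lower genes, named after their values were seen, were Car9, a surface carbonic anhydrase widely used as a hypoxia marker, at -1.76 with 1.67 CPM in CANDI470 and 8.04 CPM in the PBS control, and Cited2, which competes with HIF for its coactivators, at -1.05.

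**Figure D5:**
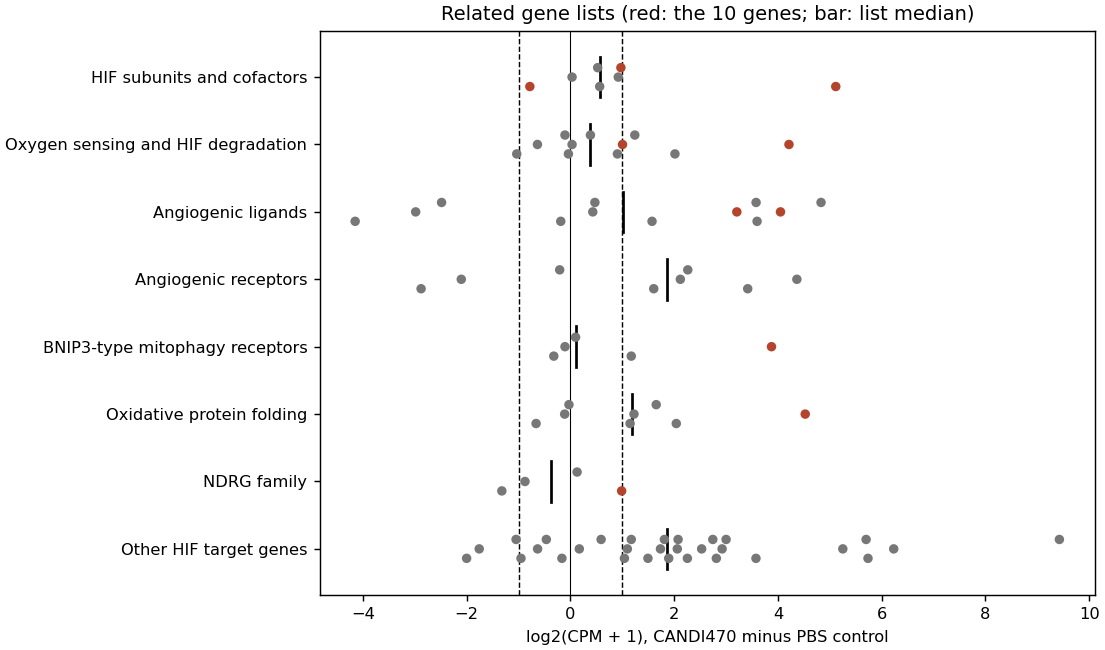
Log2 difference, CANDI470 minus the PBS control, of the compared genes of 8 related lists (points; red are the 10 genes, vertical bars are list medians, dashed lines are the 2-fold rule). Medians run from -0.38 for the NDRG family to 1.86 for angiogenic receptors, and the angiogenic ligands spread from -4.15 to 4.83.

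Markers of other cells were also higher in CANDI470, and their part in the differences of the 10 genes was not tested. The counts below stand beside 25.7% of all compared genes at least 2-fold higher. All 7 neutrophil markers were at least 2-fold higher, with a summed 699 CPM in CANDI470 and 7.51 CPM in the PBS control. Lcn2 gave 388 CPM of the CANDI470 sum. The 5 mast cell and basophil markers summed to 38.0 CPM in CANDI470 and 0.497 CPM in the PBS control, and all 5 were at least 2-fold higher. The 4 dendritic cell markers summed to 569 CPM in CANDI470, mostly Ccr7, and 7.21 CPM in the PBS control, and the 3 that were compared were higher. The 6 fibroblast markers summed to 6.40 CPM in CANDI470 and 0.442 CPM in the PBS control, with 3 at least 2-fold higher and Pdgfra at 0 in both. The 5 T and NK cell markers summed to 27.6 CPM in CANDI470, nearly all Gzmb, and 0.0828 CPM in the PBS control, with Ncr1 at 0 in both. The 3 B cell markers and the 3 erythroid markers each summed to under 1 CPM in both libraries. Many of the higher markers reached 1 CPM only in CANDI470. These were all 5 mast cell and basophil markers, the 3 higher fibroblast markers, Camp, Ltf, Mmp8, Zbtb46, Ccr7 and Gzmb. Of the 8 macrophage markers 3 were higher (Mertk, Fcgr1 and Cd14) and 1 lower, Csf1r at -2.24.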

How the data were processed

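The authors deposited whole-number counts per gene, not normalized, per the file headers, and log2 values named logCPM. For each of the 12726 genes, a deposited log2 value equalled log2(count × factor + 1), the factor being constant within a library. The submitters' processing notes name mm10; the aligner, counter, strand setting and annotation are not given in the sources used here. Reads were paired, 150 bases each, per the series' design text. A further 3 per-sample columns of the control count table, named as a second control and empty libraries, have no sample record among those used and were left out. Counts of the 51084 shared identifiers were scaled with TMM factors (edgeR 4.0.16 in R 4.3.3; 0.782 for CANDI470, 1.28 for the PBS control), computed on genes with at least 1 CPM by library totals. The shared identifiers held 99.4% of the CANDI470 and 99.5% of the PBS control counts. Coordinates come from the control table, where 98.3% of identifiers in GENCODE M21 had the same start and end (2.83% in the CANDI470 table), 9 of the 10 genes among them. Intervals of CPM ratios were exact (Clopper-Pearson on the count split, scipy 1.17.1), and intervals of levels are exact Poisson. Since the tables hold reads and not molecular identifiers, reads need not be separate molecules, and counting error is all that intervals and floors cover. The 10 genes, the lists and the markers were chosen with earlier results of these data known. Named besides the 10 genes were up to 3 compared genes per list, those that differed most in either direction, the farthest in the other direction where it reached 1, and compared members at 0 in a library. Of these, 1 gene is not reported here. Alternatives were library totals, the same centred on the median gene, DESeq2 1.42.0 size factors, the deposited logCPM, upper-quartile scaling, a minimum of 5 CPM or none, pseudocounts of 0.1 or 5 CPM, equal model lengths, and removal of GC and length trends over 20 bins each. The procedure was tested on simulated data.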

Additional observations from a re-analysis of the deposited data

How the results depend on the processing

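The number of the 10 genes at least 2-fold higher was 7 as reported and between 6 and 9 under the 11 alternatives, with Hif1a, Ero1l, Egln3, Adm, Bnip3 and Vegfa included each time. It was 9 with DESeq2 size factors and with the deposited logCPM, and 6 with library totals, with those totals centred on the median gene, with upper-quartile scaling and with a pseudocount of 5 CPM. The number at least 2-fold lower was 0 as reported and 1, Epas1, with library totals and with upper-quartile scaling. Of 109 differences of single genes under alternatives, 74 lay within the counting interval of the reported value, 35 lay outside it and none changed sign. Epas1 gave no value with equal model lengths. No paired analysis was possible because each group held 1 library as used here, and for the same reason no library could be left out. Counting limits the precision of Epas1, Egln3 and Adm most, with 111, 169 and 0 counts in their lower library, and the spread between cultures was not measured here for any of the 10.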

Other observations

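The 10 genes were not alike in base composition. The longest GENCODE M21 transcripts of Hif1a, Ero1l and Bnip3 had a GC content of 41.3%, 41.6% and 41.6%, and those of Egln1, Epas1 and Egln3 had 56.0%, 52.5% and 51.4%. With the trends of the difference in GC content and length removed, Hif1a was at 4.52, Ero1l at 3.92 and Bnip3 at 3.42, while Egln1 was at 1.43 and Egln3 at 4.54. The lowered genes Pfkfb4, Angptl4, Ramp1 and Car9 sat in the same lists as genes that were strongly higher, and Bhlhe40 at 3.58 and Bhlhe41 at -0.47, paired repressors of the circadian and hypoxia responses, also stood apart, both named after their values were seen.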
